A study of Mus musculus with 4 samples.

Results

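The cells described here are 63 granulocytic barcodes among 21483 cells of a single-cell RNA sequencing series on mouse bone marrow mesenchymal stromal cells. Granulocytes carry CD45 on their surface, and the sort was set to remove cells with CD45, so none were meant to be in these libraries. A barcode counted as a cell with at least 2000 unique molecular identifiers (UMIs, each standing for 1 captured transcript), at least 500 genes and no more than 10% of its UMIs from mitochondrial genes. It was kept as granulocytic when S100a8, S100a9, Ngp, Camp, Elane and Mpo together had at least 30 UMIs per 10000 UMIs of the barcode and Car1, a gene of erythroid progenitors, had under 5 per 10000. The sum of those 6 genes is called the marker sum, and per-barcode levels of genes and gene lists are given as UMIs per 10000.

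All animals were C57BL/6 mice, and each of the 4 groups had 1 library. WT_A1 came from wild-type mice and was paired with NHD13Tg, from mice with a Nup98-HoxD13 fusion transgene, known to be driven by Vav regulatory elements in blood cells and used as a model of myelodysplastic syndrome. Control also came from wild-type mice and was paired with the library labelled Abcg2-MDS/AML, whose genotype the labels describe no further. The sources used here do not give age, sex or how many animals went into a library. In every group femora and tibiae were crushed and digested with 2 mg/mL collagenase for 60 min at 37 °C, and cells negative for CD45, TER119 and CD31 and positive for CD140a and CD51 were sorted. With 1 library per group no difference between libraries can be tested, and no p-value is given. Intervals in parentheses are exact at the 95% level and cover counting error only.

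Neutrophils mature in the bone marrow through stages that can be told apart by the granule proteins they make. Promyelocytes fill primary (azurophil) granules with myeloperoxidase (Mpo), neutrophil elastase (Elane), proteinase 3 (Prtn3) and cathepsin G (Ctsg). Myelocytes and metamyelocytes fill secondary granules with cathelicidin (Camp), neutrophilic granule protein (Ngp), lactoferrin (Ltf) and lipocalin 2 (Lcn2). They leave the cell cycle, and then make gelatinase-granule proteins such as Mmp9 and the receptor Cxcr2. S100a8 and S100a9 form calprotectin, the most abundant cytosolic protein complex of the mature cell.

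The libraries held between 36133716 and 46033790 UMIs, with median UMIs per cell between 4186 and 5452. Between 23 and 36 cells of a library shared their barcode sequence with a cell of another library. Only 1 granulocytic barcode, in Control, was among them, and no barcode was granulocytic in more than 1 library.

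Control did not hold most of the granulocytic barcodes. WT_A1 had 13 of 4973 cells, or 0.261% (0.139 to 0.447). NHD13Tg had 28 of 5766, or 0.486% (0.323 to 0.701), and Control had 21 of 5158, or 0.407% (0.252 to 0.622). Abcg2-MDS/AML had 1 of 5586, or 0.0179% (0.000453 to 0.0997). The intervals of the first 3 libraries overlapped one another, and the upper limit in Abcg2-MDS/AML lay below the lower limit of each of the other libraries. Because the members were chosen by these genes, the counts describe the choice and the libraries, not the marrow from which the stromal cells were sorted.

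The threshold of 30 fell in a thinly filled stretch of the marker sum. The lowest values inside were 46.4 for WT_A1, 33.0 for NHD13Tg, 371 for Control and 3342 for Abcg2-MDS/AML. The highest values outside were 26.1, 28.3, 21.0 and 19.7 in the same order, and 15 barcodes lay between 15 and 30. In all other cells, which here and below leave out cells with Car1 at 5 per 10000 or more (4, 2, 432 and 1), the mean marker sum was 0.0904, 0.253, 0.151 and 0.0273, and 95.5%, 90.3%, 92.6% and 99.1% of them had no UMI of any of the 6 genes. In barcodes with 1 to 100 UMIs, which hold free RNA and no cell, the marker sum was 10.7, 11.4, 11.5 and 0.392 in the same order. Abcg2-MDS/AML, with the fewest granulocytic barcodes, also had the least granulocyte RNA outside cells.

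**Figure D1:**
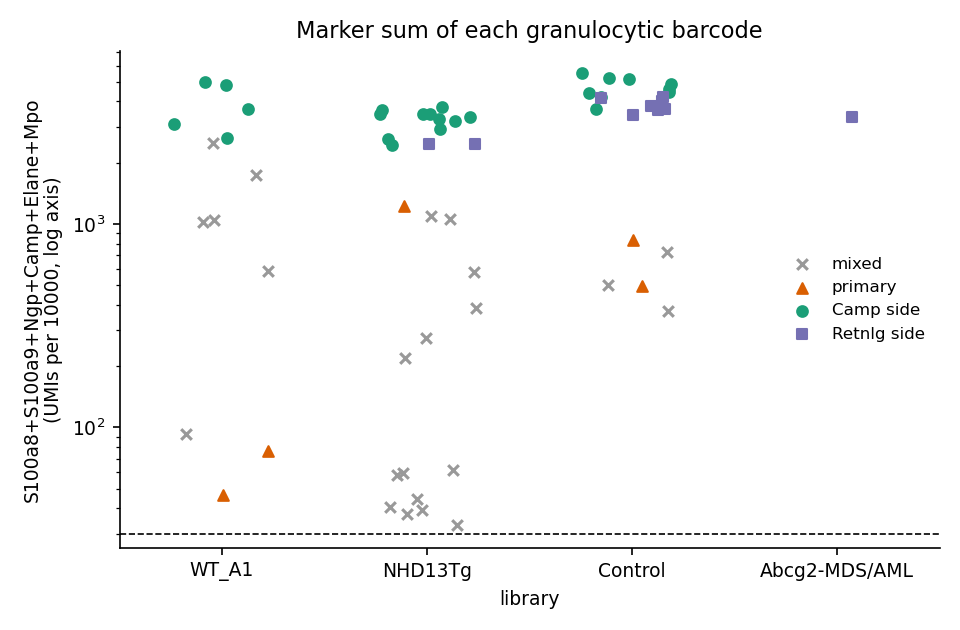
Marker sum (UMIs of the 6 genes per 10000, log axis) of each granulocytic barcode by library, with the threshold of 30 drawn as a line. Control barcodes lie at 371 and above, and the barcodes nearest the threshold are in NHD13Tg, from 33.0, and WT_A1, from 46.4.

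The label was checked against 22 genes shared by leukocytes, the leukocyte list, which includes Ptprc (CD45 itself), Tyrobp and Fcer1g. This list cannot tell granulocytes from other leukocytes, so only the leukocyte part of the label was checked. That part held for 40 barcodes and not for all of the other 23. In those 23, called mixed, the lists of stromal matrix and cartilage genes together had more UMIs than the leukocyte list. WT_A1 had 6 mixed barcodes, NHD13Tg 14, Control 3 and Abcg2-MDS/AML none, leaving 7, 14, 18 and 1 unmixed. Without the mixed barcodes the shares of cells were 0.141% (0.0566 to 0.290), 0.243% (0.133 to 0.407), 0.349% (0.207 to 0.551) and 0.0179% (0.000453 to 0.0997), so NHD13Tg was above Control with them and below it without them, with overlapping intervals both times. The interval of WT_A1 then also overlapped that of Abcg2-MDS/AML. In 4 barcodes the lists that set mixed from unmixed lay within 2-fold of each other.

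Unmixed barcodes had leukocyte list levels from 58.8 to 429 per 10000 with a median of 236, and stromal and cartilage levels from 0.520 to 146 with a median of 11.6. Mixed barcodes had leukocyte levels from 0 to 191 with a median of 37.0, and stromal and cartilage levels from 197 to 1772. In all other cells the leukocyte list stood at 2.55 to 3.95 per 10000 across libraries. Among the 9 mixed barcodes with a marker sum under 100, the median leukocyte level was 0. In 8 NHD13Tg barcodes with marker sums from 33.0 to 61.6 no UMI of Ptprc was found and the leukocyte list reached at most 5.58, near the level of other cells, so in these 8 the label goes against the data.

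**Figure D2:**
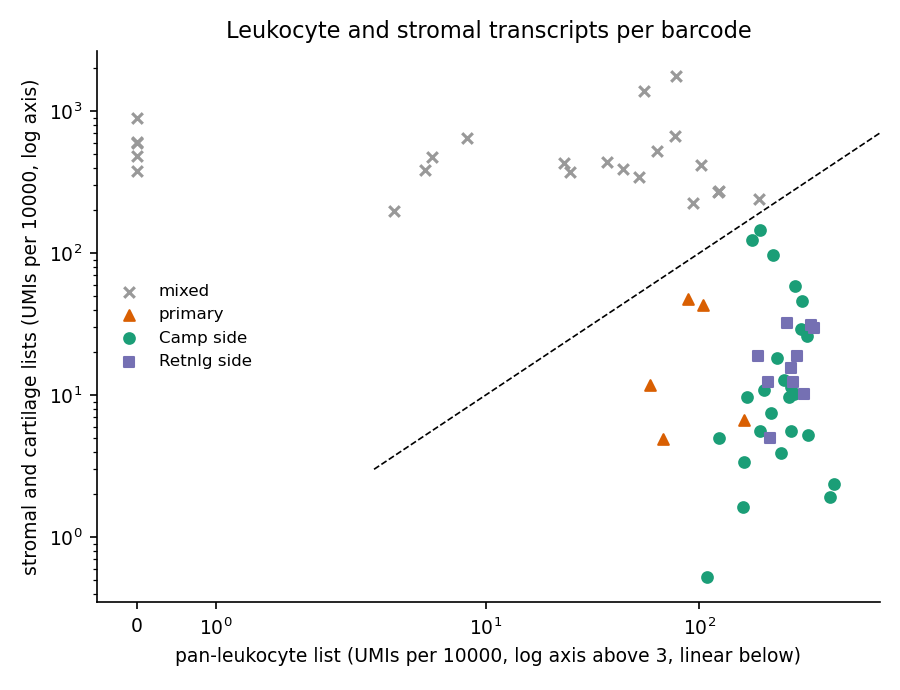
Leukocyte list (horizontal, logarithmic above a linear stretch near 0) against the summed stromal matrix and cartilage lists (vertical, logarithmic), both in UMIs per 10000, for each granulocytic barcode, with a dashed line of equal levels. Colours set mixed barcodes apart from unmixed ones, which are coloured by the sides defined below. Unmixed barcodes lie at leukocyte levels of 58.8 and above, and mixed barcodes spread from 0 to 191.

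The mixed barcodes differed from one another in how much granulocyte RNA they held. Marker sums were 1000 or more in 6 of them (4 in WT_A1 and 2 in NHD13Tg) and lower in the other 17 (2 in WT_A1, 12 in NHD13Tg and 3 in Control). Their gene content was broader than that of unmixed barcodes: at a common depth of 2000 UMIs they held 821 to 1112 genes (median 1026), against 459 to 1007 (median 642). The stromal gene with the most UMIs was Cxcl12, a chemokine of reticular stromal cells that retains blood cells in the marrow, in 13 of 23 mixed barcodes (56.5%), 2 of 6 in WT_A1, 8 of 14 in NHD13Tg and 3 of 3 in Control. In WT_A1 Dcn (decorin) led in 3 of 6, and in NHD13Tg Mgp (matrix Gla protein) led in 3 of 14. In the other cells of WT_A1, NHD13Tg and Control, Cxcl12 led in 11.6%, 20.7% and 8.33%. Whether a mixed barcode held 2 cells, a cell with attached material or a stromal cell with free RNA was not tested. The stage results below use the 40 unmixed barcodes unless the sentence says otherwise.

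Every unmixed barcode carried RNA of the leukocyte genes Tyrobp and Fcer1g, which encode signalling adaptors of myeloid receptors, and of Coro1a, Alox5ap, Cyba and Lyz2 (lysozyme). Ptprc RNA was found in 35 of 40 unmixed barcodes, at 184 CPM (UMIs per 1000000) for WT_A1, 327 for NHD13Tg, 319 for Control and 491 for the Abcg2-MDS/AML barcode. In other cells of those libraries Ptprc was at 0.446, 0.666, 0.437 and 0 CPM. The cells that passed a sort against CD45 protein thus held its transcript. Of the genes behind the positive gates, Pdgfra (CD140a) had UMIs in 4 of 40 and Itgav (CD51) in 4 of 40, all in WT_A1 and NHD13Tg. Pecam1 (CD31), behind a negative gate, had UMIs in 2 of 40.

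Markers of other blood cells were looked for by gene and by list. No unmixed barcode had a UMI of Cd79a (B cells), Cd3e (T cells), Pf4 (platelets), Epx or Prg2 (eosinophils), Siglech (plasmacytoid dendritic cells) or Gata1 (erythroid and megakaryocytic cells), where 0 of 40, with a floor of 3 counts, allows a share of up to 7.5% of barcodes with a UMI. The monocyte genes Irf8 and Csf1r were found only in 2 barcodes, described with the primary side. The list of 22 erythroid genes ranged from 0 to 5.51 per 10000 and the list of eosinophil, basophil and mast cell genes from 0 to 26.4. The megakaryocyte and platelet list ranged from 0 to 29.3 (median 3.95), all from Plek and Rap1b, and the dendritic and lymphoid list from 0 to 21.6 (median 0), with its highest value from Nkg7 in a primary-side barcode. The eosinophil, basophil and mast cell list includes Hdc, histidine decarboxylase, which neutrophil precursors also make and which was detected in 3 of 5, 20 of 25 and 9 of 10 barcodes of the primary, Camp and Retnlg sides defined next (0, 13 and 9 at a common depth of 2000 UMIs). The monocyte and macrophage list ranged from 2.02 to 66.2 (median 18.9), with its highest value on the primary side.

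The unmixed barcodes were divided by their granule genes. On the primary side (5 barcodes) the UMIs of Mpo, Elane, Prtn3 and Ctsg exceeded those of Ngp, Camp, Ltf and Lcn2. The remaining 35 were divided by whether Camp or Retnlg, a resistin-like gene of mature mouse neutrophils, had more UMIs: 25 were on the Camp side and 10 on the Retnlg side. The Camp and Retnlg division was chosen after the values were seen. These sides are ranges of a continuum, not cell types: 6 of the 63 barcodes lay within 2-fold of the first division and 8 of the 35 within 2-fold of the second. WT_A1 had 2, 5 and 0 barcodes on the primary, Camp and Retnlg sides, NHD13Tg had 1, 11 and 2, Control had 2, 9 and 7, and Abcg2-MDS/AML had 0, 0 and 1. Levels of the dividing genes and of genes that go with them are descriptions of that choice.

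Depth differed between the sides. UMIs per barcode ran from 5101 to 47153 on the primary side, from 2200 to 38469 (median 8908) on the Camp side and from 2116 to 5313 on the Retnlg side. Shares of barcodes with a UMI that are compared between sides are therefore also given after each barcode was thinned to 2000 UMIs. Because the 3′ chemistry counts 1 tag per transcript, levels were not divided by gene length.

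The 5 primary-side barcodes carried large amounts of azurophil protease RNA and little or no secondary granule RNA. Elane stood at 37.3 and 56.4 per 10000 in the WT_A1 barcodes, 178 in the NHD13Tg barcode and 193 and 265 in the Control barcodes. Prtn3 was at 51.5 and 52.7, then 68.8, then 162 and 180 in the same order, and Mpo at 8.06 and 19.7, then 38.1, then 62.4 and 122. All 3 genes were lowest in the WT_A1 pair of barcodes and highest in the Control pair. Camp was at 0.212 and 0 in WT_A1, 80.4 in NHD13Tg and 4.34 and 5.88 in Control, and Ltf, lactoferrin, was at 0 in all 5. The NHD13Tg barcode was thus the furthest along toward Camp among them.

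The WT_A1 primary-side barcodes also held 6 monocyte genes that had no UMI in the other 3. Counts of single genes here are raw UMIs, and depth differed. The WT_A1 barcodes held 47153 and 32474 UMIs, the NHD13Tg barcode 12064 and the Control barcodes 18416 and 5101. The 6 genes were not counted after thinning, so 0 UMIs in a shallower barcode does not show absence, least of all for genes with few UMIs in WT_A1. Irf8, a transcription factor of the monocyte and dendritic lineages, had 8 and 18 UMIs in them. F13a1 (coagulation factor XIII) had 34 and 27, Ms4a6c had 27 and 17, Ccr2 (the chemokine receptor of inflammatory monocytes) had 16 and 4, Ly86 had 13 and 3, and Csf1r (the receptor for M-CSF) had 2 and 5. All 6 genes, chosen after their values were seen, were at 0 UMIs in the NHD13Tg and Control primary-side barcodes. Monocyte RNA as a whole was not confined to WT_A1. The monocyte and macrophage list stood at 20.1 or above in every primary-side barcode, and at 9.45 to 61.6 on the Retnlg side. Ctss, another monocyte gene, had a median of 0.543 over the 5 primary-side barcodes. In the Control comparison below, 3 of 6 measured genes of that list were called higher on the primary side and 3 lower. Ly6c2, a surface antigen shared by monocytes and immature neutrophils, had 117 and 95 UMIs in WT_A1, 37 in NHD13Tg and 31 and 12 in Control. These counts too are not scaled to depth, and they do not show a higher Ly6c2 level in WT_A1. The marker sums of these WT_A1 barcodes, 46.4 and 76.4, were the lowest of all unmixed barcodes, and S100a8 had only 4 and 1 UMIs in them. They met the rule through Elane and Mpo, and they held granulocyte protease and monocyte transcripts together.

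Barcodes of the Camp side were dominated by secondary granule RNA. Camp ranged from 223 to 1084 per 10000 (median 455) on the Camp side and from 0 to 237 (median 37.9) on the Retnlg side. Ngp ranged from 72.5 to 679 (median 421) against 0 to 430 (median 124). Ltf, outside the dividing rule for these sides, ranged from 0.520 to 115 (median 60.5) against 0 to 71.5 (median 11.5), and Lcn2, which binds bacterial siderophores, from 14.0 to 299 (median 150) against 9.45 to 184 (median 67.7). All 4 genes overlapped between the sides but had lower medians on the Retnlg side. Chil3, a chitinase-like protein, had a median of 57.6 on the Camp side and 1.56 on the Retnlg side.

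Of the WT_A1 barcodes on the Camp side, 2 stood between the stages. With 38469 and 26262 UMIs they were the deepest of the Camp side, and they held Elane at 81.1 and 86.8 per 10000 next to Camp at 263 and 283. Ngp was at 180 and 334, S100a8 at 1132 and 1320, and Ltf at 0.520 and 0.762. They therefore had Elane with Camp and calprotectin but almost no lactoferrin RNA, which lay at 8.98 or above in every Camp-side barcode of NHD13Tg and 33.0 or above in every one of Control.

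On the Retnlg side Retnlg ranged from 167 to 796 per 10000 (median 401), against 0 to 231 (median 9.17) on the Camp side, and it was 0 in all 5 primary-side barcodes. Mmp8, neutrophil collagenase, was found in 10 of 10 Retnlg-side barcodes, at 3.13 to 56.1 per 10000, against 9 of 25 Camp-side barcodes (also 10 and 9 after thinning). Mmp9, gelatinase B, was found in 10 of 10 against 14 of 25, and in 8 against 10 after thinning. Il1b, the inflammatory cytokine interleukin 1β, was found in 8 of 10 against 1 of 25, before and after thinning. Cxcr2, the chemokine receptor through which neutrophils leave the marrow, was found in 8 of 10 against 8 of 25, and in 6 against 3 after thinning. S100a8 reached similar ranges on both sides, 862 to 2040 on the Camp side and 934 to 2144 on the Retnlg side, and far lower ones on the primary side, 0.308 to 395.

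**Figure D3:**
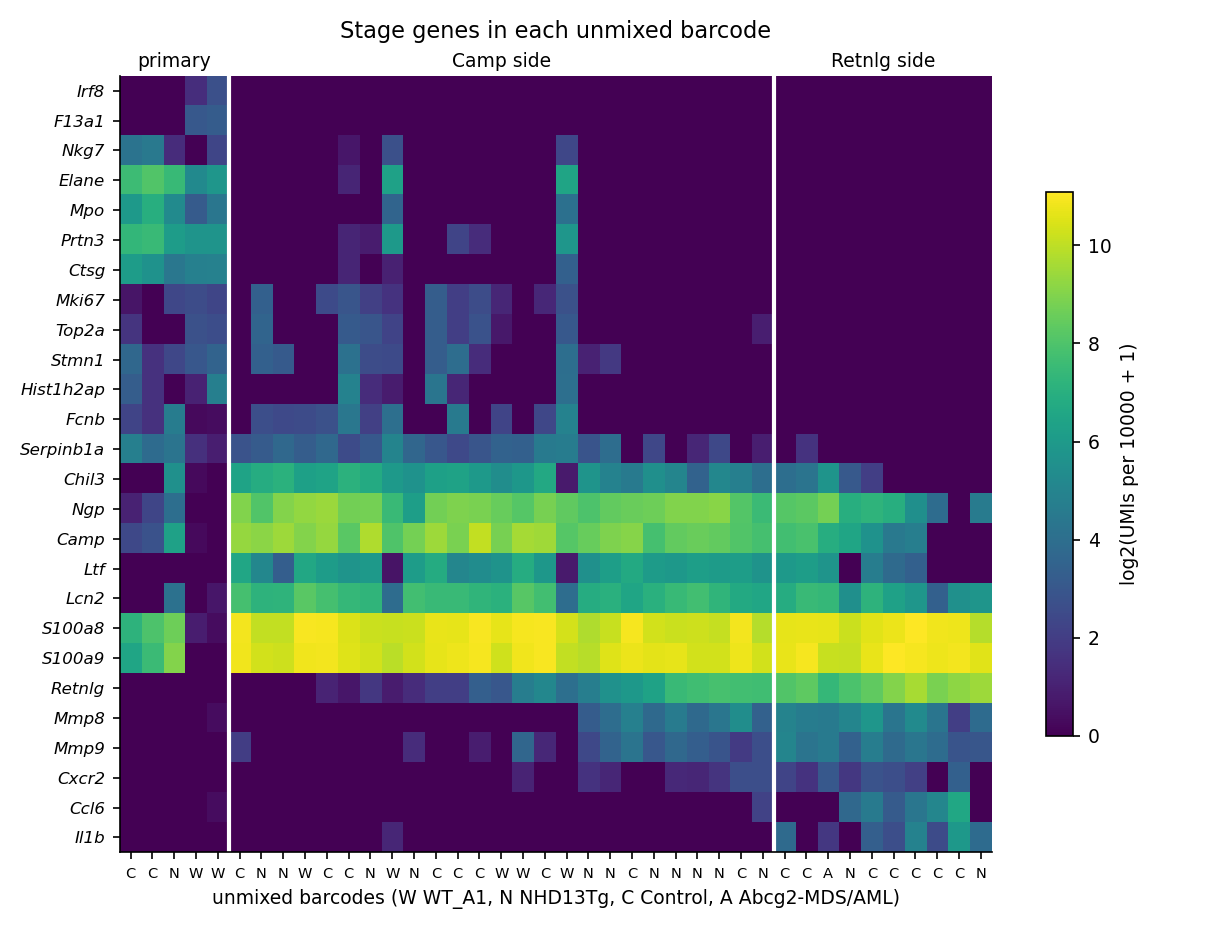
Heat map of stage genes (vertical) in each of the 40 unmixed barcodes (horizontal, lettered by library and divided by side), coloured by log2 of UMIs per 10000 plus 1. Elane and Mpo are high on the primary side, Camp and Ltf on the Camp side (median Camp 455) and Retnlg and Mmp8 on the Retnlg side (median Retnlg 401).

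Cell-cycle and ribosome genes also differed between sides. Over all libraries, the 35 genes of the proliferation list stood at 107 to 178 per 10000 on the primary side (median 127), 9.09 to 283 on the Camp side (median 52.5) and 0 to 46.7 on the Retnlg side (median 12.7). Mki67 was found in 4 of 5, 11 of 25 and 0 of 10 barcodes, and in 2, 6 and 0 after thinning, where 0 of 10 allows up to 30% with the same floor of 3 counts. Top2a, topoisomerase IIα, was found in 3, 10 and 0, and in 2, 5 and 0 after thinning. The Camp side had the widest spread, and its median differed by library, with overlapping ranges. In Control it was 110 (9.09 to 283), next to 107 and 127 in the primary-side barcodes. It was 41.2 (24.6 to 191) in NHD13Tg and 82.1 (21.1 to 199) in WT_A1.

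The 19 ribosome and translation genes ranged from 431 to 640 per 10000 on the primary side, without overlap with the Camp side (18.2 to 373, median 72.9) or the Retnlg side (20.7 to 56.1, median 33.6). Mitochondrially encoded transcripts were 1.24% to 2.61% of UMIs on the primary side, 0.235% to 2.21% on the Camp side and 0.0647% to 0.677% on the Retnlg side. At 2000 UMIs the number of genes was 830 to 1007 on the primary side, 459 to 780 (median 632) on the Camp side and 506 to 703 (median 613.5) on the Retnlg side, so the last 2 overlapped.

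**Figure D4:**
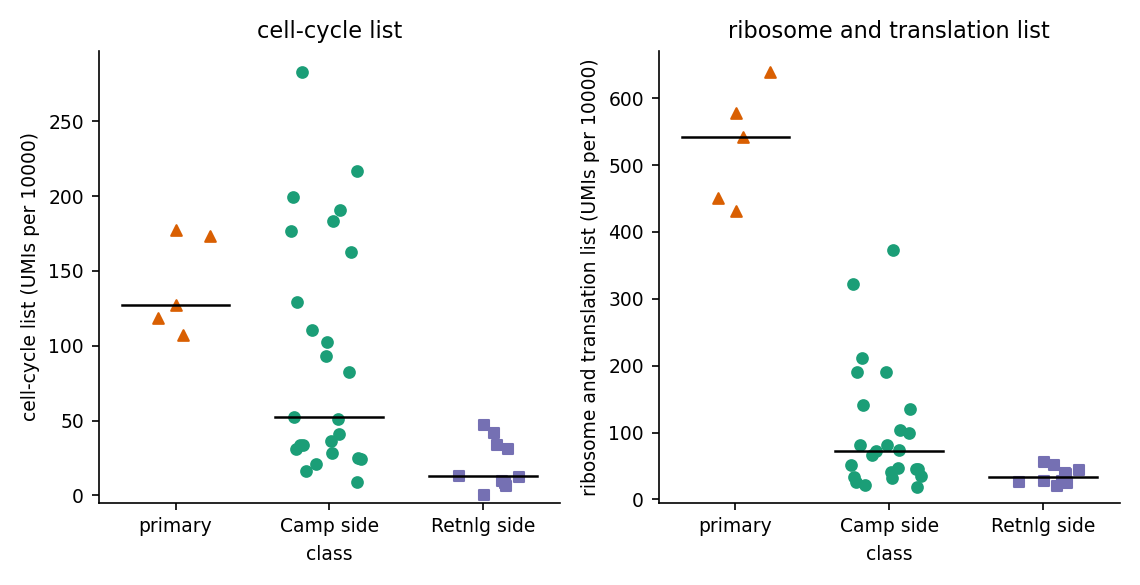
Level of the proliferation (cell-cycle) list and of the ribosome and translation list, in UMIs per 10000, in each unmixed barcode by side, with points coloured by side and a line at the median. Primary-side barcodes lie at 431 to 640 for ribosome genes, and Retnlg-side barcodes lie at or below 46.7 for proliferation genes.

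Transcription factors of the granulocyte lineage were sparse, and thinning lowered most of their counts. Cebpe, which drives secondary granule genes, was found in 4 of 5 primary, 22 of 25 Camp-side and 4 of 10 Retnlg-side barcodes (1, 11 and 1 after thinning). Spi1 (PU.1) was found in 5, 21 and 7 (3, 11 and 5 after thinning), and Cebpb, a factor of emergency granulopoiesis, in 4, 22 and 10 (2, 14 and 9). Myb, a progenitor factor, was found in 3, 5 and 1 (1, 1 and 0), and Gfi1 in 0, 4 and 0 (0, 1 and 0), too few to compare sides. The 12 genes of the phagocyte oxidase list, which make reactive oxygen, were present throughout, at 49.6 to 111 per 10000 on the primary side, 73.1 to 132 on the Camp side and 42.5 to 112 on the Retnlg side.

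In Control the Camp side (9 barcodes) could be set against the Retnlg side (7 barcodes) over summed UMIs. A gene was called where the CPM were at least 2-fold apart and the counting interval left out a ratio of 1, among genes with at least 50 CPM on 1 side. This is a size rule within 1 library, not a test, and the division used genes of the same cells. Of 2284 genes considered, 131 were higher on the Camp side (5.74%) and 252 lower (11%), with a median log2 ratio over all genes of -0.16. After thinning, 39 and 66 were called. Called genes on the Camp side included 13 of 29 measured proliferation genes with none lower (list median log2 2.38), 9 of 16 ribosome and translation genes and 4 of 11 secondary granule genes. Called lower were 17 of 26 genes of the tertiary granule and mature neutrophil list (median log2 -2.10), 8 of 21 leukocyte genes, 5 of 9 inflammatory genes and 5 of 9 cytokine and colony-stimulating factor receptors.

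Several of the genes furthest apart had no UMI on the other side, so their folds are lower bounds set against 3 counts over the whole side. Fcnb (ficolin B, a lectin of immature neutrophils) had 76 UMIs on the Camp side, at least 7.56-fold higher. The histone gene Hist1h2ap had 74, at least 7.36-fold higher, and Stmn1 (stathmin, which destabilises microtubules in mitosis) had 63, at least 6.27-fold higher. Mki67 had 38 and Top2a had 36, at least 3.78-fold and 3.58-fold higher. Most of these genes belong to dividing cells, as do Ube2c, Rrm2 and Smc4, with 30, 28 and 26 UMIs against 0. Chil3 had 756 UMIs against 18, a log2 ratio of 3.61 (2.98 to 4.41), and Cebpe 37 against 2, a log2 ratio of 2.16.

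In the other direction, Ccl6, a chemokine of myeloid cells, had 54 UMIs on the Retnlg side and 0 on the Camp side, at least 60.3-fold lower on the Camp side. Il1b had 41 against 0, at least 45.8-fold lower, and the inflammasome sensor Nlrp3 had 11 against 0, at least 12.3-fold lower. Clec4d, a C-type lectin receptor of phagocytes, had 44 UMIs against 1 (log2 -6.64). The matrix and migration genes Mmp8, Mmp9 and Cxcr2 had log2 ratios of -3.39, -4.15 and -3.95, and Srgn (serglycin, the proteoglycan of granules) -3.70. All of these genes were chosen among the largest ratios or as list members, and Camp and Retnlg set the division.

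The primary side in Control was set against its 19 secondary-side barcodes, mixed ones included, in the same way. It rests on 2 barcodes, of which 1 gave 18416 of the 23517 UMIs. Of 3053 genes considered, 697 were higher on the primary side (22.8%) and 146 lower (4.78%), with a median log2 ratio over all genes of 1.08, which list values have to be read against. After thinning, 313 and 35 were called. Called higher were 16 of 18 ribosome and translation genes (median log2 2.57), 4 of 5 primary granule genes (2.46) and 3 of 5 progenitor genes (3.34). Called lower were 15 of 27 tertiary granule and mature genes (median -2.89), 10 of 21 leukocyte genes and 8 of 14 immediate early genes. Of the proliferation list 4 of 30 were higher and 1 lower, with a median of 0.32, below that of all genes.

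Nkg7, a granule membrane protein known from cytotoxic lymphocytes, had 44 UMIs on the primary side against 1, a log2 ratio of 7.35 (5.37 to 13.26). Its UMIs came from both barcodes, 33 and 11. Retnlg had 0 UMIs against 1390, at least 84.0-fold lower on the primary side, Chil3 0 against 774, at least 46.8-fold lower, and Mmp8 0 against 97, at least 5.86-fold lower. Ly6g, a surface antigen of mature mouse neutrophils, had 0 against 66, as did Il1b. Stromal RNA entered the secondary side through mixed barcodes: Cxcl12 had 0 against 260, and Spp1 (osteopontin) 2 against 582, of which 94.2% came from 1 barcode.

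The most abundant RNAs of the 18 unmixed Control barcodes outside the marker genes were Tmsb4x (thymosin β4, which binds actin monomers) at 17723 CPM, Lcn2 at 13305, Actb (β-actin) at 9682, Retnlg at 9452, Lyz2 at 7744, Chil3 at 5747, Ltf at 4670 and Wfdc21 at 4188. Among the 15 leading genes of all 21 Control barcodes, 14 were also among the 15 of the unmixed ones. In WT_A1 the order began with Tmsb4x at 12858, Actb at 6367 and Lyz2 at 4880 CPM. In NHD13Tg 3 stefin genes came before Tmsb4x at 15214 CPM: Stfa1 at 39271, BC100530 at 31918 and Gm5483, which the ranking leaves out for its Gm symbol, at 21792. The 1 Abcg2-MDS/AML barcode (4070 UMIs, marker sum 3342) was on the Retnlg side, with Retnlg at 167, Camp at 120 and Ngp at 430 per 10000 and 35 UMIs of the chemokine Cxcl2.

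Stefins A are small inhibitors of cysteine proteases such as the cathepsins, and mice carry a cluster of near-identical copies of the gene that are made in neutrophils and other myeloid cells. Of 9 family genes in the files, 7 matched a promoter of RefSeq (GRCm38.p6), and 6 of these held the run ACCTTTAAAACCC in the 150 bases before the gene start. It is the longest run that 6 of them share, and the search was made after the sequences were seen. The 6 promoters are shown because they hold the run. Every family gene had UMIs in unmixed NHD13Tg barcodes and none had any in those of WT_A1. That includes 2010005H15Rik, with 389 UMIs in NHD13Tg, whose promoter lacks the run. They are written 5′ to 3′ on the strand of the gene with the run in capitals:

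Stfa1: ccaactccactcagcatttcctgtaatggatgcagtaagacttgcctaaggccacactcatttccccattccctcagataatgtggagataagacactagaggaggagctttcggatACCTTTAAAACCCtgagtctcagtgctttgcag
Stfa2: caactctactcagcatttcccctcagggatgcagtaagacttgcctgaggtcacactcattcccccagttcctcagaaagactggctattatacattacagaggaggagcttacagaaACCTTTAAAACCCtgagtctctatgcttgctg
Stfa3: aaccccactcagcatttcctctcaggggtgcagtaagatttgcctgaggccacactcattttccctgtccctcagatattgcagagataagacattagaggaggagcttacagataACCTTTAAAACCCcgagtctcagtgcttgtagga
Stfa2l1: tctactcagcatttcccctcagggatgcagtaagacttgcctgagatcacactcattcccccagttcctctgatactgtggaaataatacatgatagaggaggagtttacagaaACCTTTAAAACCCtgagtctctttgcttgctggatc
Gm5483: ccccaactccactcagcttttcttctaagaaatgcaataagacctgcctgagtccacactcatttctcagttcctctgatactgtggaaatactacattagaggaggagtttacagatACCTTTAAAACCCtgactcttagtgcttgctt
Gm5416: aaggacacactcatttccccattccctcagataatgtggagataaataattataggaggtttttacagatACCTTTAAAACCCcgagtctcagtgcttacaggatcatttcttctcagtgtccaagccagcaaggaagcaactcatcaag

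They lie at chr16:36276998-36277147 on the plus strand (Stfa1), chr16:36408364-36408513 on the minus strand (Stfa2), chr16:36455393-36455542 on the minus strand (Stfa3), chr16:36156661-36156810 on the plus strand (Stfa2l1), chr16:36184062-36184211 on the plus strand (Gm5483, Cstdc4 in RefSeq) and chr16:36210253-36210402 on the plus strand (Gm5416, Csta3 in RefSeq). The run began 32 to 36 bases before the gene start in 5 of them and 80 bases before it in Gm5416. Across the 15 pairs the sequences were 50.3% to 86.4% identical (median 78.3%). The promoter of 2010005H15Rik (Csta2 in RefSeq) did not hold the run. Searched on both strands, the run was in 8 of 32851 promoters of the same length (0.0244%). Of these, 6 are the promoters shown, and the other 2 are those of Cstdc3 and Gm7260, which are not among the 9 genes summed here. The match describes the letters and names no factor.

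Family UMIs were summed, since reads may not tell near-identical copies apart and the values of single genes are uncertain. How reads shared by several copies were counted was not examined. In NHD13Tg every one of the 14 unmixed barcodes held stefin RNA, 14260 of 116142 UMIs, or 1228 per 10000 (1208 to 1248). The primary-side barcode stood at 162 per 10000, the 11 Camp-side barcodes at 867 to 2287 (median 1160), and the 2 Retnlg-side barcodes at 1374 and 1399. The family was thus lowest in the only primary-side barcode, which is 1 cell and does not stand for a stage. It made up 1.62% to 22.9% of all UMIs of a barcode (median 12.7%). By gene, Stfa1 had 4561 UMIs, BC100530 3707, Gm5483 2531, Stfa3 1067, Stfa2l1 1034, Stfa2 868, 2010005H15Rik 389, Gm5416 92 and BC117090 11.

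In WT_A1, the wild-type library of that pair, none of the 7 unmixed barcodes held a stefin UMI among 178879 UMIs, and NHD13Tg was at least 7321-fold higher against 3 counts over the library. That fold is not matched for stage. WT_A1 had 2, 5 and 0 barcodes on the primary, Camp and Retnlg sides, against 1, 11 and 2 in NHD13Tg. The 2 primary-side barcodes of WT_A1 held 32474 and 47153 of its UMIs. In Control 6 of 18 unmixed barcodes held 63 stefin UMIs, 4.68 per 10000 (3.59 to 5.98), and NHD13Tg was 262-fold higher. Of these 63, 45 were Gm5483 UMIs in 1 Retnlg-side barcode of 3092 UMIs. Over all members, mixed ones included, the family stood at 826 in NHD13Tg and 4.11 in Control, at 909 and 0.390 with at least 4000 UMIs, and at 722 and 10 after thinning to 2000 UMIs. In the Abcg2-MDS/AML barcode the family had 2 UMIs. Among unmixed barcodes, the lowest NHD13Tg value, 162, was above the highest Control value, 146. Among shallower barcodes, under 2000 UMIs, 1 of Control reached 220. On the Camp side alone the values were 0 in WT_A1, 0 to 5.32 in Control and 867 to 2287 in NHD13Tg.

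**Figure D5:**
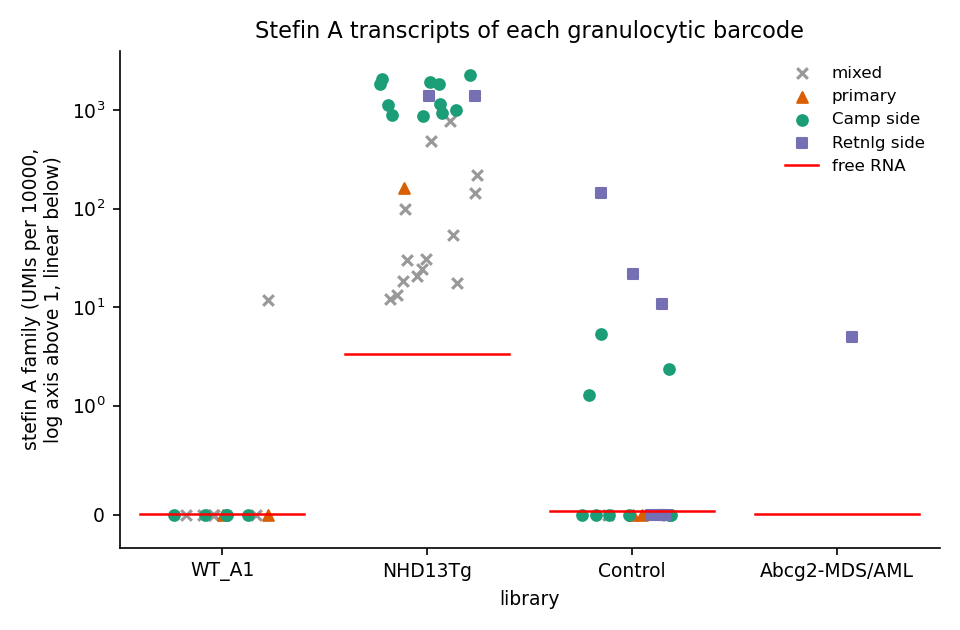
Summed stefin A family level (UMIs per 10000, axis logarithmic above a linear stretch near 0) in each granulocytic barcode by library, with mixed barcodes marked apart and a red line at the level of free RNA. All 14 unmixed NHD13Tg barcodes lie at 162 or above, while those of WT_A1 are at 0 and those of Control reach at most 146.

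Stefin RNA was set against granulocyte RNA in each kind of NHD13Tg barcode. Per 100 UMIs of the 6 marker genes there were 41.3 stefin UMIs in unmixed barcodes, 49.0 in mixed barcodes with a marker sum of at least 1000, 45.2 in the other mixed barcodes, 29.5 in all other cells and 29.4 in free RNA. All 14 mixed NHD13Tg barcodes held stefin UMIs, at 12.1 to 773 per 10000. In free RNA the ratio was 0.0510 in WT_A1, 0.283 in Control and 2.70 in Abcg2-MDS/AML. In all other cells it was 2.96, 30.1 and 14.3 in the same order, from 9, 125 and 12 stefin UMIs. By this ratio Control did not stand below NHD13Tg in other cells. Per 10000 UMIs it did, at 0.0456 (0.0379 to 0.0543) in Control against 0.0747 (0.0659 to 0.0844) in NHD13Tg. Of the 125 in Control, 117 were Stfa3.

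Control and NHD13Tg were the only libraries with at least 20 members, and their Camp sides (9 and 11 barcodes) were compared across genes. That count of members includes mixed barcodes, which the Camp sides leave out. Unmixed barcodes numbered 18 in Control and 14 in NHD13Tg, both below 20. The libraries belong to different pairs and differ in more than the transgene, which cannot be told apart here. Of 2359 genes considered, 140 were higher in Control (5.93%) and 148 lower (6.27%), a median log2 ratio of -0.06, so 48.6% of calls were higher. With the stefin family, 13.5% of the NHD13Tg UMIs, left out of the totals, 73 were higher and 197 lower, 27.0% higher, a shift of -0.21 in log2 for every gene. After thinning, 27 and 25 were called. The stefin genes led the list: BC100530 had 0 UMIs in Control against 3426 (at least 1007-fold lower), Stfa3 0 against 1028 (at least 302-fold), Stfa2 0 against 774 (at least 228-fold), Stfa1 2 against 4091 (log2 -10.50, -13.86 to -8.96) and Stfa2l1 4 against 967 (log2 -7.57).

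Beyond the stefins, 12 of 30 proliferation genes were higher in Control and none lower (list median log2 0.98). The log2 ratios and counts of this paragraph keep the stefin family in the totals. Leaving it out shifts every log2 ratio by -0.21. Mki67 had 38 UMIs against 18 (log2 1.24, 0.41 to 2.16), Rrm2 a log2 ratio of 2.55 and Cdk1 3.45. Hist1h2ap had 74 against 2 (log2 5.08), with 64.9% of the Control UMIs from 1 barcode. Per barcode the proliferation list ran from 9.09 to 283 in Control (median 110) and from 24.6 to 191 in NHD13Tg (median 41.2), so the ranges overlapped. In the 5 Camp-side barcodes of WT_A1 it ran from 21.1 to 199 (median 82.1). Of the tertiary granule and mature list, 2 of 25 were higher and 8 lower, a count that includes stefins. Among its other members Mmp8, Mmp9 and Cxcr2 had log2 ratios of -1.57, -2.01 and -2.14. The Camp sides were not matched for stage. Retnlg per barcode had a median of 3.17 (0 to 210) in Control and 47.3 (0 to 231) in NHD13Tg. Mmp8 had medians of 0 and 9.74 in the same order. Within Control, proliferation genes were also higher and Mmp8, Mmp9 and Cxcr2 lower on the Camp than on the Retnlg side. The ribosome list did not follow that direction, with medians of 51.7 in Control and 74.2 in NHD13Tg. Whether stage sets these differences was not tested. None of 16 ribosome genes and none of 10 oxidase genes was called.

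Of the stromal matrix genes 7 of 10 were lower in Control and 1 higher, and of the cartilage genes 2 of 4 were higher and none lower (median log2 2.15). Cxcl12 had 1 UMI against 96, of which 53.1% came from 1 barcode, and the adipokine Adipoq 0 against 15, of which 86.7% came from 1 barcode. Whether that stromal and cartilage RNA came from the cells themselves was not tested. S100a8, one of the genes of the selection rule, stood at 1428 to 2040 per 10000 in Control and 862 to 1288 in NHD13Tg, without overlap. Taken per 10000 UMIs outside the stefin family it ran from 947 to 1594 (median 1309) in NHD13Tg, against 1428 to 2040 (median 1886) in Control, and the ranges overlapped.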

How the data were processed

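The authors deposited matrices of raw UMI counts over 27998 genes, whole numbers that were neither normalized nor restricted to cells. The submitters' processing notes name Cell Ranger 3.1.0 and Seurat 3.2.3. Per the labels' protocols, libraries were made with Chromium 3′ v3.1 chemistry for a NextSeq 500. A genome build is not given in the sources used here.

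Counts were summed over barcodes and expressed per 10000 or per 1000000 (CPM). Intervals were exact Poisson for sums, Clopper-Pearson for shares and conditional binomial for ratios of CPM with 0.5 added to each count, at the 95% level. Python 3.11.15 with numpy 2.4.6, scipy 1.17.1, pandas 2.3.3 and scanpy 1.11.5 (Scrublet scores, used in 1 alternative, with doublets otherwise kept) was used, and ratio and interval code was tested on simulated data. Members and the 22 gene lists (387 genes, 4 not matched) were chosen with earlier results of these data known. Named genes were the rule genes, the most abundant members of each list in Control and genes defining other cell types, the 15 genes of highest CPM in Control and the 10 largest ratios in each direction of each comparison. Mitochondrial, ribosomal protein, Gm and Rik, immunoglobulin, Xist, Tsix and Y-linked genes and genes at their free RNA level stayed out of the rankings. Monocyte genes of the primary side, stefin genes outside the lists, the leading stromal genes and single barcodes were named after their values were seen.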

Additional observations from a re-analysis of the deposited data

Results flagged for a closer look

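The share of granulocytic barcodes among cells was 0.224 percentage points higher in NHD13Tg than in its paired library WT_A1, and in Abcg2-MDS/AML it differed from Control by -0.389 percentage points. The libraries of the 2 pairs thus went in opposite directions, and the difference between the pairs was not tested. Of the 28 NHD13Tg barcodes, 14 were mixed. Without mixed barcodes the shares were 0.243% (0.133 to 0.407) in NHD13Tg and 0.141% (0.0566 to 0.290) in WT_A1. The intervals of these 2 libraries overlapped with and without mixed barcodes.

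Granulocytic RNA was also present in barcodes too shallow to count as cells. Among barcodes of 200 to 2000 UMIs, a marker sum of at least 1000 per 10000 was found in 1 of WT_A1, 2 of NHD13Tg, 19 of Control and 0 of Abcg2-MDS/AML, against 9, 16, 16 and 1 barcodes with that marker sum among the cells. The 19 Control barcodes had 205 to 1938 UMIs (median 388), and Retnlg exceeded Camp in 16 of them, while 16 held no stefin UMI and the other 3 held the family at 25.8, 153 and 220 per 10000. The 2 NHD13Tg barcodes, with 834 and 872 UMIs, held stefin RNA at 767 to 837 per 10000. In Control the Retnlg side of the cells had 7 barcodes, against these 16.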

How the results depend on the processing

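Of 127 alternative values for the planned results, 107 stayed within their counting interval or within 1.5 times the count, and 20 moved. The share of granulocytic cells moved in 1 case, from 0.486% to 0.243% in NHD13Tg without mixed barcodes. The primary-side share of members, 15.4% in WT_A1, became 0 of 10 at a marker sum of at least 100. The leukocyte list level, 124 in WT_A1, 145 in NHD13Tg and 199 in Control over all members, was 118, 117 and 188 at a marker sum of at least 15, and 140 and 169 in WT_A1 and NHD13Tg at 100. It was 145, 214 and 215 without mixed barcodes, 139, 126 and 221 after thinning to 2000 UMIs, 157 and 187 in NHD13Tg and Control at 4000 UMIs, and 209 in Control without the highest Scrublet scores. Genes higher and lower on the primary side in Control, 697 and 146, numbered 1818 and 838 with each barcode weighted equally and no interval required, and 313 and 35 after thinning. The other comparisons moved likewise: 131 and 252 on the Camp against the Retnlg side became 715 and 839 with equal weights and 39 and 66 after thinning, and 140 and 148 in Control against NHD13Tg became 523 and 443, and 27 and 25 after thinning. Of 40 alternative values of the stefin family level over all members, 12 moved: NHD13Tg (826) ranged from 665 at a marker sum of at least 15 to 1228 without mixed barcodes, and Control (4.11) from 0.390 at 4000 UMIs to 10 after thinning. The cause was not tested.

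The Camp and Retnlg sides, the comparison of Control with NHD13Tg, the stefin family and the shallow barcodes were added after seeing the data. WT_A1 had 7 to 16 members under every setting, below the 20 set for comparing libraries, so its planned gene comparisons with Control and NHD13Tg are not given. No paired analysis was possible because each group had 1 library. Depth limits single genes: 0 UMIs in a barcode does not show absence.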
